A study of Caenorhabditis elegans with 2 samples.

Results

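The genes described are the small nuclear RNA (snRNA) genes of Caenorhabditis elegans, which make the RNAs of the spliceosome and the spliced leader RNAs. They were taken as every gene of biotype snRNA on chromosomes I to V and X in the Ensembl annotation of WBcel235, the assembly also called ce11, which gave 129 of 46890 annotated genes. Each was extended by 200 bp on either side, and a gene was said to have a peak where the summit of a deposited peak fell in that window. The data are chromatin immunoprecipitation sequencing (ChIP-seq) peaks of the homeodomain transcription factor CEH-31 from whole C. elegans late embryos, hermaphrodite by label, at 5 h after synchronization by egg bleaching. The 2 biological replicates both came from strain OP370, genotype unc-119(tm4063) III; wgIs370, in which a transgene makes CEH-31 with a C-terminal GFP-FLAG tag, and an antibody against GFP was used for the pull-down of sonicated chromatin. They form a single group, so the design holds no comparison between groups. Peaks from a whole embryo do not tell strong binding in few cells from weak binding in many, and peak lists carry no expression values against which the labelled stage could be checked.

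Each of 4 deposited lists was read for every gene. The replicate lists, which keep weak regions, held 21175 peaks for replicate 1 and 22471 for replicate 2, and the relaxed list of the pooled replicates held 24555. The optimal list, which the authors kept for reproducibility between replicates, held 3697 peaks with a median signal of 149 and a lowest signal of 90.5. Signal is the authors' own strength value for a peak, on a scale that is not given, so it was read only as strength and rank within a list. The depth of the libraries is unknown, because the lists carry no read counts, and the control library was not analysed here.

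Spliceosomal snRNAs join with Sm or LSm proteins into the particles that recognise splice sites and catalyse splicing. In nematodes a spliced leader RNA, carried by a similar particle, also gives its leader to the 5′ ends of many mRNAs by trans-splicing, with SL1 placed mostly on the first gene of a transcript and SL2-type leaders mostly on downstream genes of operons. Transcription of snRNA genes starts from a compact promoter, where the SNAPc complex binds a proximal sequence element just upstream of the start, and genes read by RNA polymerase III also carry a TATA box.

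The 129 genes hold 94 distinct sequences, and 44 of them share their exact sequence with at least 1 other member. The annotation assigns symbols for the SL1 RNA genes (sls-1, 12 genes), the SL2-type RNA genes (sls-2, 18 genes) and the SmY RNA genes (smy, 10 genes), whose products are Sm-bound RNAs associated with trans-splicing in nematodes. It gives no U1, U2, U4, U5 or U6 class to the others. These were grouped by sequence, at an identity of at least 75%, and each group is called here by 1 of its members. The groups are R07E5.16 (24 genes), C47F8.9 (19), sup-6 (13), F38E11.11 (12) and T11F9.15 (5), with 16 genes left ungrouped. The sup-6 group contains sup-6 and sup-39, known from genetics as U1 RNA genes in which mutations suppress a splice-site defect. In the R07E5.16 group, 22 of 24 genes contained the letters ACAGAGA, which are known from the U6 RNA of other species, and no gene of another group did.

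The promoters are shown first, because most peaks described below lie over them. Each sequence is the 80 bp just before the annotated start, read from the RefSeq copy of WBcel235 5′ to 3′ on the strand of the gene. Capitals mark 4 short motifs, CGNAACCC, TGTCNGNAC, GCCTCGAAA and TATATAA. The first 3 promoters, of SL2-type genes on chromosome II, share GCCTCGAAA at the same place. Of these genes, sls-2.1 had a strong CEH-31 peak with its summit over the promoter. The strong summit at sls-2.2 lay 114 bp past the start and not over the promoter shown, and sls-2.3 had none in its window.
sls-2.1 (II:5844785-5844864, plus strand): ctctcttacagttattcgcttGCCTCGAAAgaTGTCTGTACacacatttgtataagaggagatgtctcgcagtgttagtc
sls-2.2 (II:5543518-5543597, plus strand): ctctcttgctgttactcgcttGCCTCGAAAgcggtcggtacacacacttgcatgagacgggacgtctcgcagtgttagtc
sls-2.3 (II:5544274-5544353, minus strand): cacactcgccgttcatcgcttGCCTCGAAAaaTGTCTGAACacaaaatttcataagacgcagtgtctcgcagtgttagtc

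The next 4 promoters belong to genes with an optimal peak from 3 groups, and they share CGGAACCC or CGAAACCC, which in sup-6 and sup-39 is followed by a TGTCNGNAC match.
sup-6 (II:12944968-12945047, minus strand): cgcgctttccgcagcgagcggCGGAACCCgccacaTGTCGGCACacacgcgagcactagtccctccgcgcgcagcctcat
sup-39 (II:6968559-6968638, minus strand): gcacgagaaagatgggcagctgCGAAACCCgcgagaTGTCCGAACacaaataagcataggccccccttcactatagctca
sls-2.8 (III:12250385-12250464, plus strand): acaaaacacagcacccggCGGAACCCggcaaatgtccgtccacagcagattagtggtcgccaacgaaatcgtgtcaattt
F38E11.11 (IV:9444562-9444641, plus strand): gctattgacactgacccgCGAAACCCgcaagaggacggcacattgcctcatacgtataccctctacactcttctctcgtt

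Both R07E5.16-group genes with an optimal peak carry CGGAACCC farther out, followed by TATATAA.
R07E5.16 (III:10989599-10989678, plus strand): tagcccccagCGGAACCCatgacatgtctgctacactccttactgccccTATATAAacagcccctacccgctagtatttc
F54D8.7 (III:5080899-5080978, minus strand): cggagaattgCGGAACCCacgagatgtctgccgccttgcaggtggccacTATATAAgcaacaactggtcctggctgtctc

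The last set holds a gene with an optimal peak and no motif in capitals (T11F9.15), 2 genes with a motif and no peak in any list (F08G2.11 of the C47F8.9 group and smy-5), and an SL1 RNA gene.
T11F9.15 (V:11980038-11980117, plus strand): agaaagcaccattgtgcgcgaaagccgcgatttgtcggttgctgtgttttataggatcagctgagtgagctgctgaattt
F08G2.11 (II:13852707-13852786, plus strand): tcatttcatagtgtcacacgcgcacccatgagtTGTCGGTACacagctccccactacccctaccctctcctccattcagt
smy-5 (V:14096466-14096545, minus strand): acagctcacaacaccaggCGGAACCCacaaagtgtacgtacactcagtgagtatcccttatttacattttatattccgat
sls-1.10 (V:17131162-17131241, minus strand): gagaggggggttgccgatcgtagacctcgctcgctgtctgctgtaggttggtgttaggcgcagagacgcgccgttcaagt

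The first 24 bases of this sls-1.10 copy (V:17131138-17131161, minus strand) are given because they contain the SL1 leader.
sls-1.10 start: cggtttaattacccaagtttgagg

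CEH-31 peaks lay at a minority of snRNA genes. Of 129 genes, 12 had an optimal summit in the window, a share of 9.30% (95% Wilson interval 5.40 to 15.6%, which covers the number of genes only), beside 6.68% over genes of all biotypes. The share was 9.52% at 19973 protein-coding genes, 20.5% at 346 snoRNA genes and 24.2% at 612 tRNA genes. The interval of the snoRNA genes began at 16.6%, above the end of the snRNA interval, and that of the tRNA genes began higher still. The intervals treat genes as independent, which copies of 1 sequence and genes that share a peak are not. All shares also come from the same 2 libraries, and the biotypes differ in how much of their windows is repeated sequence. The gap between the intervals is therefore a description, and a difference between biotypes was not tested. In the relaxed pooled list 37 snRNA genes (28.7%, interval 21.6 to 37.0%) had a summit, beside 26.5% of all genes. Replicate 1 had a summit at 31 snRNA genes (24.0%, beside 25.0% of all genes) and replicate 2 at 33 (25.6%, beside 25.6%). The relaxed shares were thus close to the share over all genes, and the optimal share lay above it with an interval that includes it. All genes include 15363 piRNA genes, of which 0.319% had an optimal and 2.05% a pooled summit, and these lower the background. Beside protein-coding genes, the snRNA share was similar in the optimal list (9.52% there) and lower in the pooled list (41.1% there).

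The windows of snRNA genes are short, so summits were also counted by length. Merged, they cover 65721 bp, or 0.0655% of the 6 chromosomes, and held 14 optimal summits, or 0.379% of the optimal list. This is 213 optimal summits per Mb, beside 36.9 per Mb over the chromosomes, and 669 pooled summits per Mb beside 245. Neighbouring genes share these windows, so the density is a description of the sequence around snRNA genes. The chromosomes as a whole include sequence far from gene starts, and the density around other genes was not computed. Optimal summits also gathered near other starts. In bins of 50 bp they reached 1.45 per 100 protein-coding genes, 3.88 per 100 snRNA genes and 10.1 per 100 tRNA genes.

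Taking the strongest optimal summit in each window, the 12 genes rest on 11 separate summits, and these are the 11 peaks described below. The other 3 of the 14 optimal summits are weaker second summits in the windows of sls-2.4, sls-2.1 and a copy of R07E5.16. The gene mir-1831, a 22 bp entry that the annotation classes as snRNA, lies inside sup-39 and shares its peak. All 12 genes also had a summit in both replicate lists, which follows nearly by construction, since the optimal list was kept for reproducibility between these replicates. Of the other 117 genes, 25 had a summit only in the pooled list or in that and a replicate list, 11 only in a replicate list, and 81 in no list.

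**Figure D1:**
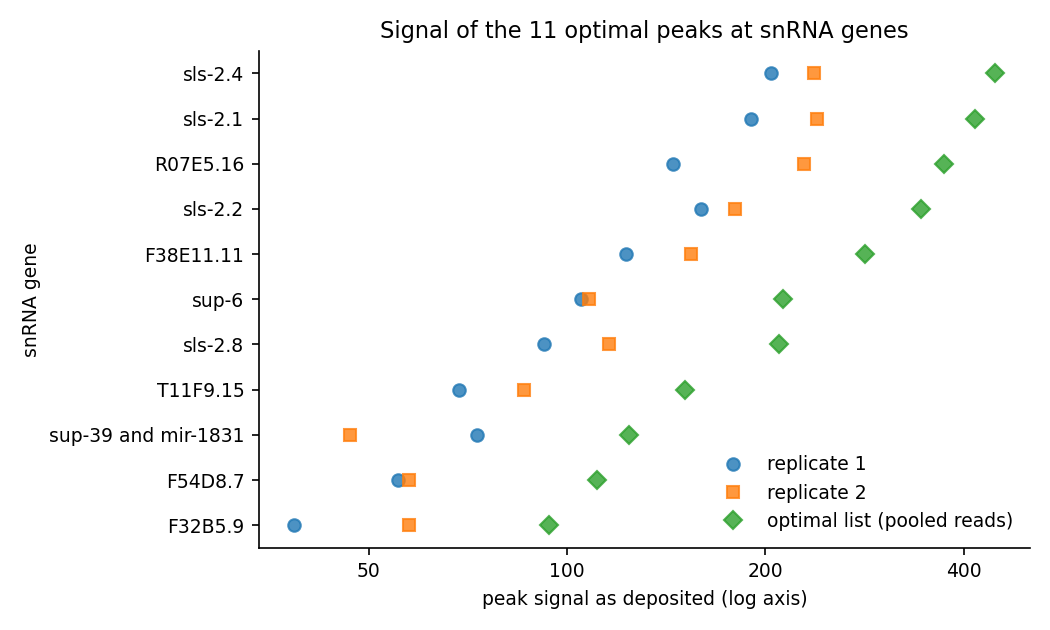
Signal of the strongest optimal peak at each snRNA gene that has one, 11 separate peaks (log axis, the authors' peak signal), one row per gene in order of optimal signal, with circles for replicate 1, squares for replicate 2 and diamonds for the optimal list. The optimal signal runs from 93.9 at F32B5.9 to 446 at sls-2.4, and only sup-39 with mir-1831 is weaker in replicate 2 than in replicate 1.

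Genes for SL2-type spliced leader RNAs had the 2 highest signals and 3 of the 4 highest, with an R07E5.16 copy ranking between sls-2.1 and sls-2.2. At sls-2.4 (WBGene00004836) on chromosome I the signal was 204 in replicate 1, 237 in replicate 2 and 446 in the optimal list, where it ranked 163. The sls-2.1 gene (WBGene00004833, II:5844865-5844974) had 190 and 240 in the replicates and 417 in the optimal list, rank 197. The sls-2.2 gene (WBGene00004834, II:5543598-5543707) had 160, 180 and 345, rank 345. These genes are alike in sequence: sls-2.1 and sls-2.2 match at 92.7% of positions and at 85.0% over the 60 bp upstream, and sls-2.2 and sls-2.4 at 96.4% and 68.3%. The fourth, sls-2.8 (WBGene00004840, III:12250465-12250575), matches sls-2.1 at 37.3% of ungapped positions and had a lower signal of 92.2, 116 and 210.

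Of the 18 SL2-type genes, 4 had an optimal summit (22.2%, beside 6.68% of all genes). Of the rest, 5 had a pooled summit, 1 a replicate summit only, and 8 none. The gene sls-2.3 (WBGene00004835, II:5544164-5544273) is the closest relative of sls-2.2, with 97.3% of positions the same, and carries the same GCCTCGAAA upstream. Its own 200 bp upstream are 100% unique in the genome, its gene 39.2% and its whole window 86.2%. The nearest optimal summit was that of sls-2.2, 561 bp from its start. The genes sls-2.2 and sls-2.3 point toward each other, so this summit lies between them, beyond the 3′ end of both, and 114 bp past the start of sls-2.2. Among the strongest summits of the 11 peaks it is the farthest from a start.

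The gene pair sls-2.14 and sls-2.15 shows the same unevenness at lower signal. At sls-2.14 (III:11090412-11090523) the signal was 17.9 in replicate 1, 35.6 in replicate 2 and 55.3 in the pooled list, rank 7538 of 24555. At sls-2.15 (III:11091010-11091121) a summit was found in a replicate list only, and a strong optimal peak of signal 669, rank 37, lay 846 bp past its start, outside the window.

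None of the 12 SL1 RNA genes had a summit in any of the 4 lists. All carry the symbols sls-1.1 or sls-1.10 and lie on chromosome V, with only 2 distinct gene sequences among them. Their windows could hardly be read by unique sequence: the share of 32-base words found once in the genome was 0% in 10 windows and at most 20.6% in the other 2. The part of repeated sequence in the absence of SL1 peaks was not tested, since how the authors treated reads with several matches is not given in the sources used here. Together the 30 spliced leader genes included 4 with an optimal summit (13.3%), beside 6.68% of all genes. The other 99 snRNA genes included 8 (8.08%), which rest on 7 separate peaks.

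**Figure D2:**
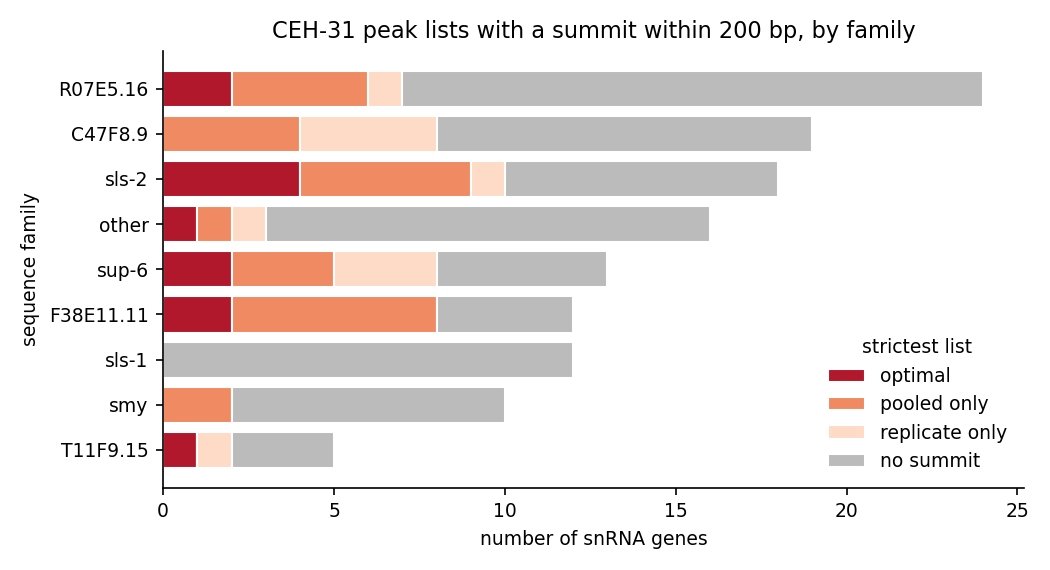
Number of snRNA genes per sequence group (x axis), with bars split by the strictest CEH-31 list that had a summit within 200 bp of the gene. The sls-2 group has 4 of 18 genes in the optimal list, F38E11.11 has 8 of 12 in the optimal or pooled list, and sls-1 has none of 12 in any list.

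The R07E5.16 group, the one with ACAGAGA, had 2 optimal peaks among 24 genes. The copy of R07E5.16 at III:10989679-10989780 (WBGene00014543), in an intron of dhc-4, had a signal of 145 in replicate 1, 229 in replicate 2 and 374 in the optimal list, rank 281. The gene F54D8.7 at III:5080798-5080898 (WBGene00195000) had 55.3, 57.6 and 111. The first is thus among the strong peaks in both replicates, and the second is below the median of the optimal list. Other copies had less: R07E5.16 at III:4426854-4426955 had 35.8 in replicate 1, a higher value in replicate 2, and 76.9 in the pooled list, and R07E5.16 at III:4414185-4414286 had 36.6, 21.4 and 59.5. Copies of this gene are identical inside, with 14 genes in all holding the sequence of the first, so a peak can be placed at 1 copy only by its flanks. The 200 bp upstream of the III:10989679-10989780 copy are 100% unique.

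The F38E11.11 group had the highest share with a pooled summit, 8 of 12 (66.7%), with 2 of them optimal. The pooled share was 26.5% over all genes and 41.1% over protein-coding genes. The 6 genes of the group with only a pooled summit had signals from 25.6 to 55.3, in a list whose lowest signal was 25.3. The copy of F38E11.11 at IV:9444642-9444763 (WBGene00014366) had 123 in replicate 1, 154 in replicate 2 and 283 in the optimal list, rank 526. A gene with the same sequence at IV:9464517-9464638 had 32.2, 21.8 and 55.3 in the pooled list, and no optimal summit. Both copies have 100% unique sequence in the 200 bp upstream. The other optimal gene of the group, F32B5.9 (WBGene00044927) on chromosome I, had 38.5, 57.5 and 93.9, just inside the optimal list.

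The U1 genes sup-6 and sup-39 were 2 of 13 genes in their group with an optimal summit, and 5 of the 13 had a pooled summit. At sup-6 (WBGene00006315, II:12944803-12944967), in an intron of F58G1.7, the signal was 105 in replicate 1, 108 in replicate 2 and 213 in the optimal list. At sup-39 (WBGene00006344, II:6968394-6968558), inside C15F1.5, it was 73.0, 46.8 and 124. The sup-39 peak was the only 1 of the 11 with a lower signal in replicate 2, at 0.641 of the value in replicate 1. The sup-6 peak was nearly equal in both, at 1.03. A relative on chromosome I, H27M09.6, had 26.5, 20.3 and 48.5 in the pooled list.

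One of the 5 genes of the T11F9.15 group had an optimal peak. The copy of T11F9.15 at V:11980118-11980261 (WBGene00014291) had 68.6 in replicate 1, 86.0 in replicate 2 and 151 in the optimal list, close to the median of that list. Its summit lies 52 bp before the snRNA start and at -343 bp from the start of snr-4, a Sm core protein gene on the other strand, so 1 peak serves as the nearest for an snRNA gene and for a gene of an snRNA-binding protein. A second copy with the same sequence, at V:11478148, had no summit in any list. The C47F8.9 group (19 genes) and the SmY group (10 genes) had no optimal summit, with 4 and 2 pooled summits. The strongest of these were smy-12 with 41.9 and Y54G9A.8 of the C47F8.9 group with 39.7 in the pooled list. The 16 ungrouped genes had 2 pooled summits, that of mir-1831 included.

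Across the 11 optimal peaks the median signal was 213, and 8 exceeded the median of the optimal list. The 4 that were among its 369 strongest peaks are those of sls-2.4, sls-2.1, the R07E5.16 copy and sls-2.2. The ratio of replicate 2 to replicate 1 ran from 0.641 to 1.57 with a median of 1.25, and 10 of 11 were higher in replicate 2. Over 3690 optimal peaks with a summit of both replicates within 200 bp, the median ratio was 1.08. Replicate summits lay a median of 17 bp apart at the 11 peaks, and at most 51 bp.

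The replicates ranked the stronger snRNA peaks in nearly the same order. Over 19 separate summits found in both replicates the Spearman coefficient of signal was 0.933, and over the 11 optimal peaks it was 0.918. Over the 8 without an optimal summit it was 0.31. These coefficients describe sites from the same 2 libraries, and the weaker peaks span a small range of signal. The 25 genes with a pooled and no optimal summit had signals from 25.6 to 76.9, with a median of 36.4, and 18 ranked below the median of the pooled list. A summit in both replicate lists was present at 8 of these 25, and 4 had a summit in neither. At the edge of the optimal list, F32B5.9 lay just inside with 93.9 and the R07E5.16 copy at III:4426854-4426955 was the strongest snRNA peak outside it, with 76.9.

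Optimal summits lay mostly over the promoter of the snRNA gene. Of the 14 in the windows, 9 lay before the start and 5 past it, in a range of -64 to 188 bp, where negative values are upstream. Of the 11 strongest per gene, 9 fell 0 to 70 bp before the start, and their range was -64 to 114 bp with a median of -24 bp. Of these, 3 fell near the motif position, at -60 bp for F38E11.11, -62 bp for sls-2.1 and -64 bp for sls-2.8. Those of sls-2.4 (-24 bp), F54D8.7 (-23 bp), the R07E5.16 copy (-19 bp) and sup-6 (-9 bp) lay closer to the start. The other 2 strongest summits lay past the start, at 74 bp inside sup-39 and at 114 bp behind sls-2.2. All 3 second summits also lay past the start, at 139 bp for sls-2.1 (signal 145), 177 bp for sls-2.4 (signal 220) and 188 bp for the R07E5.16 copy (signal 187). Among the 25 genes with only a pooled summit, 11 had it upstream and 8 within 70 bp upstream.

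**Figure D3:**
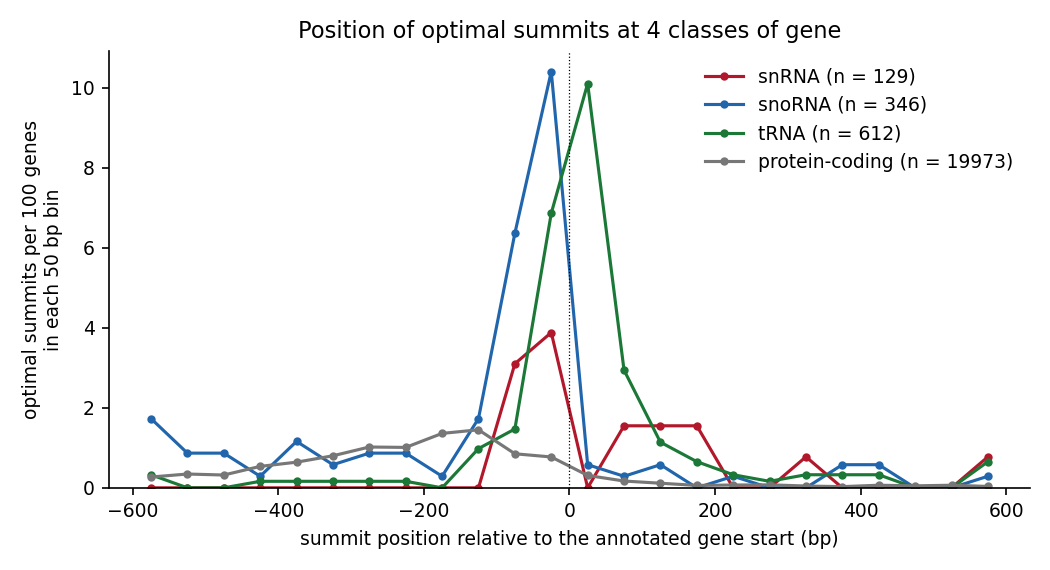
Optimal summits per 100 genes in bins of 50 bp (y axis) by position from the annotated start (x axis, bp, negative upstream), for snRNA, snoRNA, tRNA and protein-coding genes. The snRNA line is highest in the bin just before the start, at 3.88 per 100 genes, where snoRNA genes have 10.4 and protein-coding genes 0.771, while tRNA genes are highest just after it, at 10.1.

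The same profile was read in numbers for the bins around the start. In the bin from -50 to 0 bp there were 3.88 optimal summits per 100 snRNA genes, 10.4 per 100 snoRNA genes and 6.86 per 100 tRNA genes. From 0 to 50 bp there was none at snRNA genes, 0.578 at snoRNA genes and 10.1 at tRNA genes. The snRNA values rest on 5 and 0 summits. Summits that belong to neighbouring genes are included.

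The promoter letters were common among snRNA genes and rare elsewhere. Searched on both strands of the 100 bp upstream, CGNAACCC was present at 46 of 129 snRNA genes (35.7%) and at 0.478% of all 46890 genes, with its first base at a median position of -61. TGTCNGNAC was present at 40 genes (31.0%, beside 0.473% of all genes), with a median position of -47 and 38 of its 39 sense matches within 3 bp of that. The 2 do not overlap: 12 genes had both, among them sup-39 and mir-1831 with the same copies. In all 11 of the genes with both on the sense strand TGTCNGNAC began exactly 14 bp after CGNAACCC. TATATAA was present at 18 genes (14.0%, beside 3.52%), and 15 of these are in the R07E5.16 group.

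CGNAACCC was present at a larger share of the genes with a CEH-31 peak in the optimal or pooled list. It was present at 8 of the 12 genes with an optimal summit, 15 of 25 with a pooled summit only, 3 of 11 with a replicate summit only and 20 of 81 with none. The letters were picked from these genes, so the shares are a description. They widen CGGAACCC, the most frequent 8-base word upstream of these genes, by allowing any base at the third place. CGGAACCC itself was present at 5 of 12, 8 of 25, 3 of 11 and 15 of 81, so the contrast was smaller without the widening. Both sup-39 and mir-1831 are among the 8 genes with CGNAACCC and an optimal summit, with the same motif copy and the same peak. The 81 include the 12 sls-1 genes, which lack CGNAACCC and whose windows are at most 20.6% unique. TGTCNGNAC did not order these classes as CGNAACCC did. It was present at 5 of 12, 10 of 25, 7 of 11 and 18 of 81, with sup-39 and mir-1831 again both among the 5. The C47F8.9 group carried it at 18 of 19 genes and had no optimal summit, and the SmY group carried CGNAACCC at 8 of 10 genes and had none either. GCCTCGAAA was present at sls-2.1, sls-2.2, sls-2.3 and sls-2.4, each time at position -59, and 3 of the 4 had an optimal summit. That of sls-2.2 lay past the 3′ end of the gene. Of all genes, 0.0554% had GCCTCGAAA. It too was picked from these genes, so the 3 of 4 is only a description.

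A pair of letter cores known for Bar-class homeodomains was counted in the same way. TAATTG was present upstream of 9 snRNA genes (6.98%, beside 9.32% of all genes) and TAAACG upstream of 8 (6.20%, beside 3.75%). Neither was present at any of the 12 genes with an optimal summit in the 100 bp searched. Of the 25 genes with a pooled summit only, 2 had TAAACG and 0 had TAATTG, and of the 11 with a replicate summit only, 2 and 1 had them. The absence at the 12 genes says only that these letters are not in that window.

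**Figure D4:**
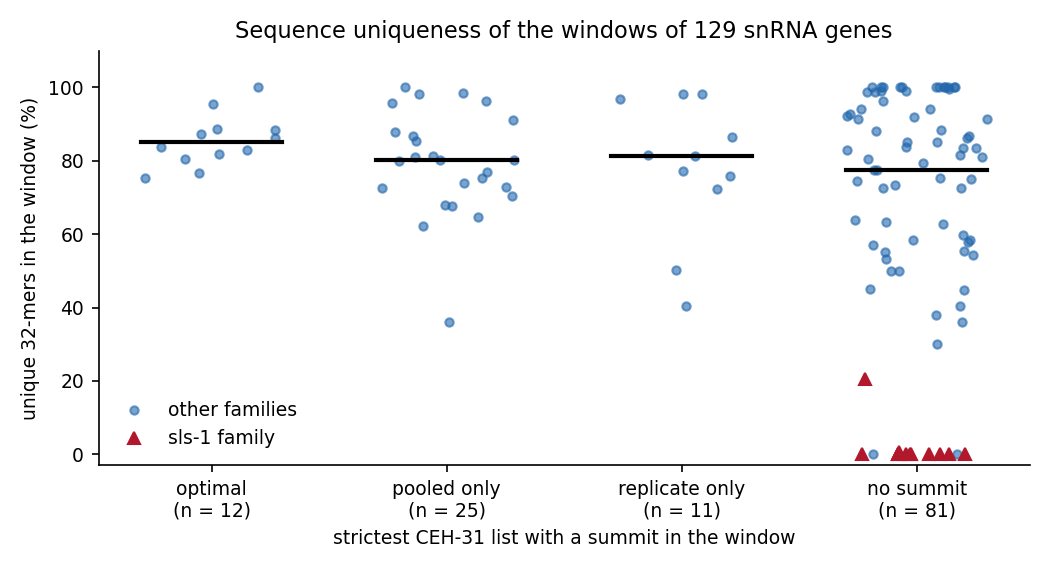
Share of 32-base words in each window that occur once in the genome (y axis, %), for the 129 snRNA genes by the strictest CEH-31 list with a summit (x axis), with triangles for sls-1 genes and bars at the median. The 12 genes with an optimal summit lie between 75.2% and 100%, and the genes with no summit reach down to 0%, the sls-1 genes among them.

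Windows made mostly of repeated sequence rarely had a peak. The median share of unique 32-base words was 85.1% in the windows with an optimal summit, 80.2% in those with a pooled summit only, 81.3% in those with a replicate summit only and 77.4% in those with none. Of 23 windows under 50% unique, 0 had an optimal and 1 a pooled summit, and 21 of them were in the class with no summit. In the 106 windows at least 50% unique, 12 (11.3%) had an optimal and 36 (34.0%) a pooled summit. The 200 bp upstream of all 12 optimal genes were 100% unique. The part of repeats in the missing peaks was not tested, and 60 of the 81 genes without a summit have windows at least 50% unique. The medians were 87.6% for tRNA genes and 100% for snoRNA genes.

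Most snRNA peaks could also be counted for a neighbour. Only 8 of 129 windows touched no extended gene of another biotype, and 0 of those had an optimal summit. All 12 genes with an optimal summit thus had such a neighbour. The T11F9.15 summit lies in an exon of the ncRNA gene C52E4.14, and the sup-39 summit in an exon of the ncRNA gene C15F1.14. Inside protein-coding genes lie 63 snRNA genes, 5 of them with an optimal summit, and outside lie 66, with 7. Of the 11 optimal peaks, 7 lay in the start window of a protein-coding gene, which runs from 1000 bp upstream to 200 bp downstream. The nearest protein-coding starts were those of tim-1, with the sls-2.8 summit at -237 bp from it, snr-4 (-343 bp from the T11F9.15 summit), cpz-1 (512 bp, F32B5.9), F38E11.9 (-542 bp, F38E11.11) and egg-5 (-593 bp, sls-2.4). In each of the 11 cases the snRNA start was nearer, at 9 to 114 bp. A window of 200 bp around a short gene largely fixes this, so it does not assign the peaks to the snRNA genes. Starts of other non-coding genes were not compared.

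By chromosome, an optimal summit was found at 5 of 16 snRNA genes on chromosome II, resting on 4 peaks, beside 8.98% of all genes there. It was found at 3 of 13 on III (beside 12.8% of all genes), 2 of 16 on I (13.0%), 1 of 41 on IV (2.54%), 1 of 40 on V (5.98%) and 0 of 3 on X (10.8%). The shares of all genes again include the piRNA genes, which were not counted by chromosome. Chromosomes IV and V hold 81 of the 129 genes, the 12 SL1 RNA genes among them.

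The protein side of the pathway was read from 6 lists of genes for snRNP proteins and their assembly, of which 65 genes were in the annotation. In their start windows 22 (33.8%) had an optimal summit, beside 11.5% of all protein-coding genes, and 46 (70.8%) a pooled summit, beside 33.5%. By list, the optimal counts were 4 of 7 for Sm proteins, 3 of 8 for LSm proteins, 8 of 22 for other snRNP and SL particle proteins, 2 of 9 for SNAPc and polymerase III initiation, 3 of 11 for Integrator and 2 of 8 for the SMN complex and snRNP transport. With the window used for the snRNA genes, 15 of the 65 had an optimal summit, beside 9.52% of protein-coding genes. In the same order of lists the counts were then 1 of 7, 3 of 8, 5 of 22, 1 of 9, 4 of 11 and 1 of 8. The Sm gene with a summit in that window was snr-7, which had none in its start window. The shares describe lists chosen with results known.

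Among Sm genes, which encode the ring around snRNAs, the strongest optimal signals in the start window were 680 at snr-1, 373 at snr-2 and 151 at snr-4. The first 2 summits are nearer the starts of snx-13 and W08E3.4. In the snRNP list sna-2, an SL particle protein gene, had 173 in replicate 1, 196 in replicate 2 and 370 in the optimal list, with the summit at -109 bp from its start. The gene snrp-40.1 had 256 and prp-8, for the catalytic core protein of the spliceosome, had 245. Among LSm genes, whose products bind U6 RNA, lsm-3 had 292, lsm-7 had 107 and gut-2 had 105, and the first 2 summits lie nearer another gene.

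The SNAPc genes snpc-3.4 and snpc-4, for subunits of the complex that binds snRNA promoters, had 123 and 111. The Integrator genes ints-4, ints-8 and ints-2, of the complex that cleaves snRNA 3′ ends in animals, had 358, 283 and 148. Of the assembly list, imb-1, an importin gene, had 312 and xpo-1, an exportin gene, had 133, both with another gene's start nearer the summit.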

How the data were processed

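CEH-31 ChIP-seq peak lists of 2 biological replicates were used in ce11 coordinates. The authors deposited a relaxed list per replicate, a relaxed pooled list and an optimal list, which was derived from these 3, per the deposited text. Which aligner and peak caller were used, and in which versions, is not given in the sources used here. Per the deposited lists, the signal of each peak is the authors' value on an unstated scale, and the summit is the peak start plus the deposited offset. The ce10 lists were not used.

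Genes came from Ensembl release 115 (WBcel235), and sequence from RefSeq's copy of the same assembly; positions are 1-based. All 129 snRNA genes match a RefSeq snRNA. Members and gene lists were chosen with earlier results of these data known, so shares are given beside the background and without tests. The genes named are all with an optimal summit, the 5 strongest with only a pooled one, those at the edge of the optimal list and up to 3 per pathway list; other genes were named after their values were seen. Groups joined sequences of at least 75% identity and 70% length ratio. Uniqueness is the share of 32-base words occurring once in the genome; the authors' read length is unknown here. Window counting was checked on simulated summits. Python 3.11.15, pandas 2.3.3, numpy 2.4.6, Biopython 1.88 and matplotlib 3.10.9 were used.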

Additional observations from a re-analysis of the deposited data

How the results depend on the processing

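Shares were recomputed under other windows, peak strengths and single replicates, and a share was taken as stable where it stayed in the 95% Wilson interval of the reported one. With a window of 0 bp around the gene the optimal share fell to 0.775% of snRNA genes (1 gene, sup-39) and 3.19% of all genes. It was 0% of spliced leader genes and 1.01% of the other snRNA genes, and the pooled share of snRNA genes fell to 6.98%. Of the 14 optimal summits in the windows, 9 lay before the start. Of the 25 genes with only a pooled summit, 11 had it upstream. With 500 bp the optimal share was 10.9% of snRNA genes and 9.67% of all genes. A window of 300 bp before the start and 50 bp after it gave 6.98% and 4.38%, without sup-39, mir-1831 and sls-2.2, and the pooled share was 20.2%. Counting any overlap of the peak gave 10.1% and 8.79%, with smy-1 added. Keeping the stronger peaks, above the median of the optimal list, gave 6.20% of snRNA genes, 4.04% of those that are not spliced leader genes and 3.60% of all genes. Among the 8 snRNA genes with no gene of another biotype in reach (4 spliced leader genes and 4 others), 0% had an optimal and 12.5% a pooled summit. No optimal list was remade from a single replicate. In its place, the peaks ranked to 3697, the size of the optimal list, were taken from 1 replicate list. The share was 7.75% from replicate 2, without sup-39 and mir-1831, and 8.53% from replicate 1, without F32B5.9. In place of the pooled list, the full relaxed list of replicate 2 gave 25.6% and that of replicate 1 gave 24.0%. One member per distinct sequence gave 12.8%. Windows at least 50% unique, an alternative chosen after seeing the data, gave 11.3%. All 12 optimal genes had summits of both replicates within 100 bp, which the making of the optimal list nearly fixes and which is no sign of stability. No paired analysis was possible because the replicates form 1 group. Read depth is unknown, so no share has an error from depth, and the intervals cover the number of genes only.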
